A study of Mus musculus with 6 samples.

Results

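Genes of fatty acid uptake, storage, oxidation and synthesis were followed in Pax7-expressing limb cells of the mouse embryo and fetus. The set was a list of 49 gene symbols, chosen without a threshold on any measured value, and of several probe sets for a gene the one with the highest mean over all arrays was used. Of the 49 genes, 46 were measured by a probe set with 1 symbol, out of 18182 genes in all, and Acsl1, Cpt1b and Ucp2 were not analysed here. The 46 genes fell into uptake, binding and activation (12), storage and lipolysis (6), beta-oxidation (16), regulators (7) and synthesis (5).

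The cells carried the Tg:Pax7-nGFP transgene, which marks nuclei with GFP where Pax7 is active, on a mixed C57BL/6:DBA2 background, and neither age was treated. Pax7 is the paired-box factor of muscle stem and progenitor cells. GFP-positive cells were sorted from trypsin-digested limbs at E12.5 and at E17.5, with 3 arrays per age, labelled as biological replicates and lettered A, B and C. How many embryos each array drew on is not given in the sources used here. Values are log2 signals, each mean carries its SD over the 3 arrays of an age (written ±), and a difference is the E17.5 mean less the E12.5 mean, with the standard error (SE) and adjusted p of limma, a linear model fitted to all 18182 genes with Benjamini-Hochberg adjustment. A gene was called at an adjusted p under 0.05. In sorted but bulk RNA, fewer cells of a type and less RNA per cell cannot be told apart.

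Long-chain fatty acids are freed from lipoproteins by lipoprotein lipase, enter cells with the help of CD36 and transport proteins, are carried by fatty acid binding proteins and are activated to acyl-CoA. Acyl-CoA is stored in lipid droplets as triglyceride, or passed into mitochondria by the carnitine shuttle and shortened there by beta-oxidation, whose electrons reach the respiratory chain through the electron transfer flavoprotein. In muscle, PPAR nuclear receptors and PGC-1 coactivators control many of these genes, and PDK4 turns down glucose oxidation when fatty acids are used.

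Replicates A and B of E17.5 resembled one another more than any other pair of the same age. The SD of their difference over the 8758 genes averaging 6 or more was 0.152, against 0.412 to 0.551 in the 5 other pairs. The median absolute difference over the 46 genes was 0.08, against 0.165 to 0.235. They may not be independent samples, so each call was also made on their mean, taken as 1 sample against the rest, here called the averaged fit. Signals under 4 lie in the background range of this normalization, which held the mean of 42.8% of all genes. The arrays held the marker genes of the labelled cells, since all 9 measured myogenic markers, with Msc and Myf5 the brightest, were at 6 or more on every array. Of the 9, 3 rose, also in the averaged fit: Chrna1, a subunit gene of the muscle acetylcholine receptor (by 2.53, adjusted p = 0.00108), Myog, the differentiation factor myogenin (by 1.86, adjusted p = 0.0128), and Pax7 (by 0.91, adjusted p = 0.0105). The part of this change in the results on fatty acid genes was not tested.

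At E17.5 the lipid-binding gene Fabp4 and the kinase gene Pdk4 were far higher than at E12.5, the acyl-CoA dehydrogenase genes Acadvl, Acadl and Acadm and the electron transfer gene Etfdh were moderately higher, and Angptl4 and the carnitine shuttle genes Cpt1a and Slc25a20 were lower. The fall of Cpt1a was not called in the averaged fit, and that of Angptl4 was seen only on its brighter probe set. Of the 46 genes 11 rose, 4 fell and 31 were not called. That is 32.6% called, against 16.9% of all genes in either direction, 8.21% higher and 8.73% lower. The fatty acid genes were also brighter than most. Of the 36 with a mean of at least 6, 33.3% were called, 8 higher and 4 lower, against 26.4% of all genes that bright, 13.2% higher and 13.2% lower. In the averaged fit 8 rose and 2 fell, or 10 of 46, against 10.2% of all genes, 5.62% higher and 4.54% lower. The number of falls was 2 without E12.5 replicate C, without E17.5 replicate A or without E17.5 replicate B. A change of at least 2-fold was called in 7 of the 46 genes, 6 higher and 1 lower, against 10.8% of all genes. The median difference over the 46 genes was 0.21, against 0.0033 over all genes.

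The E17.5 arrays lay wholly above or wholly below the E12.5 arrays for 29 of the 46 genes (63%, against 31.4% of all genes). They were above in 21 genes, against 14.2% of all genes, and below in 8, against 17.2%. The matching share among genes with a mean of at least 6, where 36 of the 46 lie, was not taken. Of the 15 called genes, 10 were called in the averaged fit and in each of the 6 fits that left out 1 array: Fabp4, Angptl4, Slc25a20, Acadl, Acadm, Acadvl, Etfdh, Pdk4, Ppara and Acacb. Fabp5, Lpl, Acsl4, Plin2 and Cpt1a lost their calls in the averaged fit. Of the 31 genes without a call, 19 had a 95% interval, not adjusted for the number of genes, that lay within 1 on either side of 0. For the other 12 a difference of 2-fold was inside the interval.

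**Figure D1:**
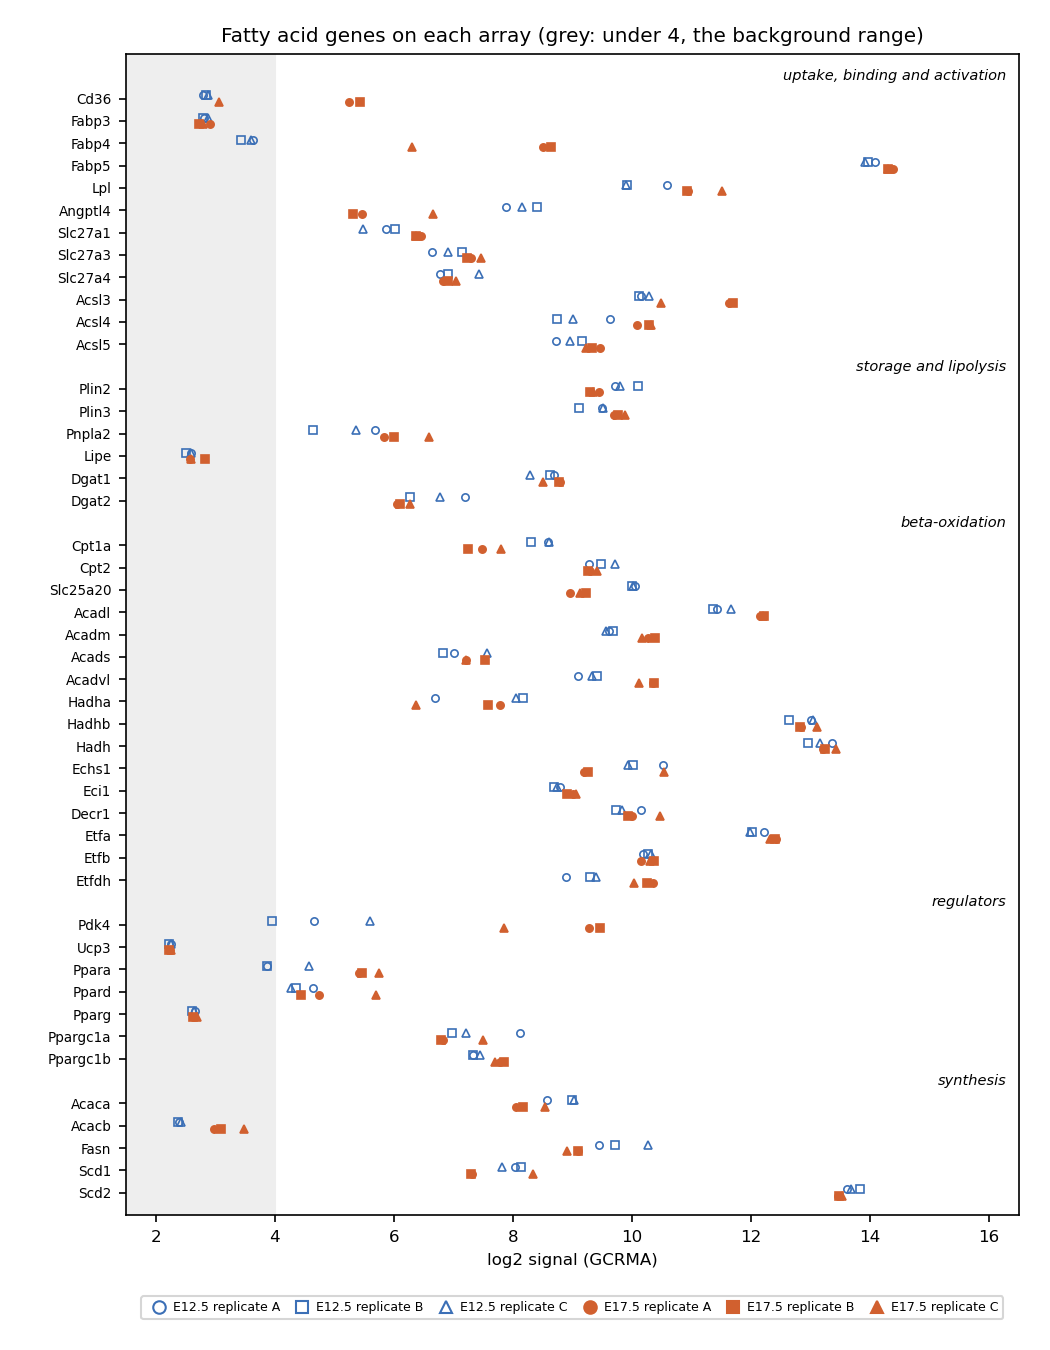
Log2 signal of the 46 fatty acid genes (rows, by group) on each of 6 arrays, with E12.5 as open and E17.5 as filled symbols and the replicates as circle, square and triangle. Fabp4 and Pdk4 show the widest separation of the ages, and 5 genes have means under 4 at both ages.

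In the uptake, binding and activation group 4 of 12 genes rose, 1 fell and 7 were not called. That is 41.7% called, against 16.9% of all genes, with a median difference of 0.52. Of the 9 with a mean of at least 6, 44.4% were called, against 26.4% of all genes that bright. The averaged fit left 1 rise and 1 fall among the 12, against 10.2% of all genes called, 5.62% higher and 4.54% lower. The rises numbered 2 without E12.5 replicate B or without E17.5 replicate A, and 1 without E12.5 replicate C or without E17.5 replicate B.

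Fabp4 encodes the fatty acid binding protein best known from adipocytes, capillaries and macrophages. It stood at 3.64, 3.43 and 3.60 on the E12.5 arrays A, B and C, and at 8.50, 8.65 and 6.30 on the E17.5 arrays. All E12.5 values were in the background range, all E17.5 values were above it, and E17.5 C was lower than A and B. The mean went from 3.56 ± 0.11 to 7.82 ± 1.32 (difference 4.26, SE 0.62, adjusted p = 0.00498; averaged fit, adjusted p = 0.0175). Raising values under 4 to 4 gave a difference of 3.82. A second probe set of Fabp4 read 2.84, 2.65 and 2.83 at E12.5 and 7.75, 7.10 and 3.29 at E17.5, so that on this probe set E17.5 C stayed in the background range. The other 2 probe sets of the gene lay between 1.99 and 2.03 and between 2.05 and 2.10.

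Cd36, the fatty acid translocase, had a like pattern over the arrays without a call. It was at 2.79, 2.85 and 2.87 at E12.5 and at 5.25, 5.43 and 3.07 at E17.5 (difference 1.75, SE 0.59, adjusted p = 0.102). The higher values came from E17.5 A and B, while C lay with the E12.5 arrays in the background range. Raising values under 4 to 4 gave a difference of 0.89. Without E17.5 replicate C the difference was 2.50 (adjusted p = 0.000399), in a fit whose E17.5 arrays are then the close pair A and B.

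Because Fabp4 and Cd36 are also known from other cell types, marker lists of these were read on the same arrays. All 9 measured adipocyte markers, among them Adipoq, Lep and Cidec, were under 4 on every array. The brightest, Thrsp and Aqp7, had E17.5 means of 3.38 and 3.34. The log2 of the summed adipocyte marker signal ran from 5.74 to 6.02 at E12.5 and from 5.86 to 6.01 at E17.5.

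Of 15 endothelial markers, Pecam1 was at 2.33 and 2.32 and Cdh5 at 3.27 and 2.93 at E12.5 and E17.5, both in the background range. The brightest were Tek, which rose from 5.29 to 10.18, and Egfl7, at 7.10 and 7.43, while Erg fell from 6.76 to 3.80. The log2 of the summed endothelial signal ran from 8.36 to 9.63 at E12.5 and from 10.43 to 10.63 at E17.5. Tek made up most of the E17.5 sum. Of the 15 markers 12 had a negative difference, with a median of -0.37, and their mean log2 signal ran from 3.59 to 4.71 at E12.5 and from 3.45 to 3.87 at E17.5. Between 1 and 4 of the 15 markers reached 6 on an E12.5 array, and 2 did on each E17.5 array. Kdr was at 4.31, 6.04 and 4.25 at E12.5 and at 4.26, 4.30 and 1.92 at E17.5. Esam was at 4.48, 6.39 and 4.69 at E12.5 and at 4.94, 5.01 and 2.81 at E17.5. On both, E17.5 C was the lowest array. Of the 15 markers 11, 10 and 13 were under 4 on E17.5 A, B and C. Of 15 macrophage and leukocyte markers Ptprc was at 2.53 and 2.51. Csf1r was at 4.41, 6.42 and 3.60 at E12.5 and at 4.19, 4.46 and 3.86 at E17.5. Mrc1 was at 3.73, 5.37 and 3.83 at E12.5 and at 4.52, 4.81 and 4.28 at E17.5. Of the 15 markers 9 were under 4 on each E17.5 array. The brightest were Laptm5, which fell from 8.31 to 6.54 (averaged fit, adjusted p = 0.0504), and the lysosomal gene Cd68, which rose from 3.69 to 6.68. Lyz2 was at 3.66, in the background range, and 4.72 (adjusted p = 0.0409; averaged fit, adjusted p = 0.108). The log2 of their summed signal ran from 8.32 to 9.45 at E12.5 and from 8.26 to 8.57 at E17.5. The part of cells with endothelial, macrophage or leukocyte markers in the differences of Fabp4 and Cd36 was not tested.

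Fabp5, the epidermal-type fatty acid binding protein, was at 14.09, 13.97 and 13.92 at E12.5 and at 14.39, 14.31 and 14.30 at E17.5. The ages did not overlap, and the difference was small (0.34, SE 0.086, adjusted p = 0.0401). The averaged fit did not call it (adjusted p = 0.147), nor did the fits without E12.5 replicate B (adjusted p = 0.107) or C (adjusted p = 0.140), and without E17.5 replicate A (adjusted p = 0.167) or B (adjusted p = 0.137). Fabp3, the heart and muscle fatty acid binding protein, was between 2.73 and 2.92 on all 6 arrays, in the background range at both ages, and its second probe set read between 2.32 and 3.30.

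Lpl, lipoprotein lipase, was at 10.59, 9.92 and 9.90 at E12.5 and at 10.94, 10.93 and 11.51 at E17.5. The lowest E17.5 array was above the highest E12.5 array by less than the spread among the E12.5 arrays. The difference of 0.99 (SE 0.24, adjusted p = 0.0357) was still called when E12.5 A was left out. It was not called in the averaged fit (adjusted p = 0.0676) or without E12.5 B (adjusted p = 0.108), E12.5 C (adjusted p = 0.114), E17.5 A (adjusted p = 0.0679), E17.5 B (adjusted p = 0.0703) or E17.5 C (adjusted p = 0.0759).

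Angptl4, a secreted inhibitor of lipoprotein lipase and a PPAR target, moved the other way. It was at 7.88, 8.41 and 8.15 at E12.5 and at 5.47, 5.32 and 6.66 at E17.5. No array of E17.5 reached the E12.5 values, and C was the E17.5 array nearest to them. The mean fell from 8.15 ± 0.27 to 5.82 ± 0.73 (difference -2.33, SE 0.39, adjusted p = 0.00815; averaged fit, adjusted p = 0.0302). It rested on a probe set of the _s_at type, whose probes can be shared between transcripts. The other probe set read 2.95, 2.82 and 2.96 at E12.5 and 2.92, 2.90 and 4.11 at E17.5, in the background range but for E17.5 C.

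Acsl4 belongs to the long-chain acyl-CoA synthetases, which activate fatty acids, and prefers arachidonic acid. It was at 9.63, 8.74 and 9.02 at E12.5 and at 10.08, 10.29 and 10.32 at E17.5 (difference 1.10, SE 0.23, adjusted p = 0.0199). It was not called in the averaged fit (adjusted p = 0.0581) or without E12.5 C (adjusted p = 0.0685), E17.5 B (adjusted p = 0.0741) or E17.5 C (adjusted p = 0.0555). Acsl3, a synthetase of lipid droplets and endoplasmic reticulum, was at 10.15, 10.13 and 10.29 at E12.5 and at 11.63, 11.70 and 10.49 at E17.5 (1.08, SE 0.32, adjusted p = 0.0635). Here too E17.5 C was close to E12.5. Without it, which leaves the close pair A and B at E17.5, the difference was 1.48 (adjusted p = 0.000917). In the averaged fit the adjusted p was 0.182. Acsl3 was also called when genes with a mean under 4 (adjusted p = 0.0303) or under 6 (adjusted p = 0.0293) were left out of the fit.

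Acsl5, a synthetase of mitochondria and endoplasmic reticulum, differed by 0.39 (95% interval 0.034 to 0.75, adjusted p = 0.140). Among the fatty acid transport proteins Slc27a1, the FATP1 of muscle, differed by 0.61 (adjusted p = 0.143) and Slc27a3 by 0.43 (adjusted p = 0.234). In both the E17.5 arrays lay above the E12.5 arrays. Slc27a4 overlapped (-0.12, adjusted p = 0.868).

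**Figure D2:**
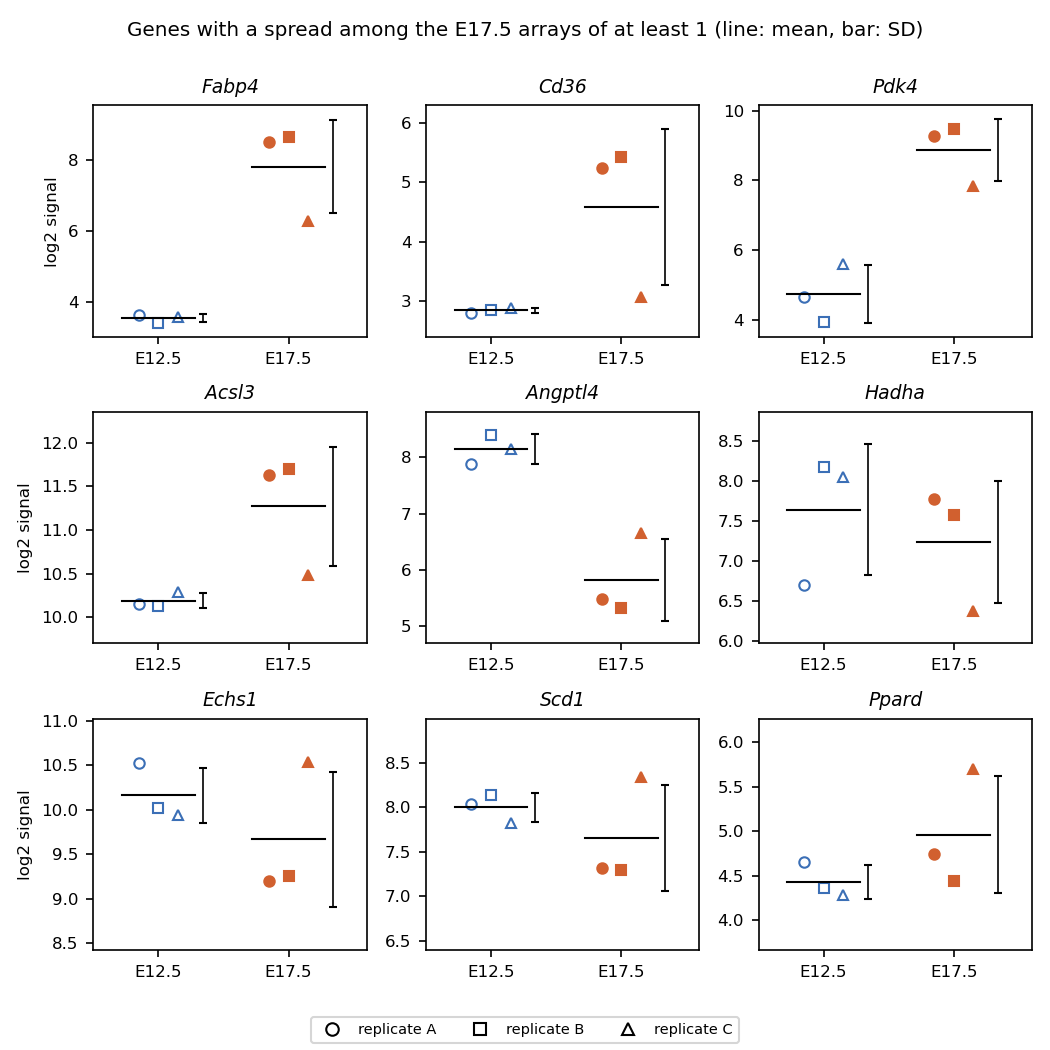
Log2 signal by age of the 9 fatty acid genes whose E17.5 arrays spanned at least 1, with a line at the mean and a bar for the SD (n = 3 per age). In each panel E17.5 replicates A and B lie close together and C apart from them, lower for Fabp4, Cd36, Pdk4, Acsl3 and Hadha and higher for Angptl4, Echs1, Scd1 and Ppard.

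The array E17.5 C differed by at least 1 from the mean of A and B in 9 of the 46 genes, lower in 5 and higher in 4. Among the 9, Fabp4 (-2.27) and Cd36 (-2.27) had the largest gaps. Marker lists differed between these arrays too. Fibroblast and mesenchyme markers had a mean log2 signal of 8.64, 8.51 and 7.80 on E17.5 A, B and C. It was 6.43, 6.49 and 4.69 for cartilage markers and 7.05, 6.98 and 6.43 for pericyte and smooth muscle markers. Myogenic markers were at 11.7, 11.72 and 11.54, and adipocyte markers, in the background range, at 2.60, 2.62 and 2.72. The part of these in the gaps was not tested. At E12.5 the arrays spanned at least 1 in 4 genes, Pdk4 (1.65), Hadha (1.48), Ppargc1a (1.15) and Pnpla2 (1.03). The median span over the 46 genes was 0.39 at E12.5 and 0.25 at E17.5, where A and B count as separate arrays.

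Of the 6 storage and lipolysis genes 1 fell and 5 were not called (16.7% called, near the 16.9% of all genes). Of the 4 with a mean of at least 6, 25% were called, near the 26.4% of all genes that bright. Plin2, which coats lipid droplets in most cells, was at 9.72, 10.11 and 9.81 at E12.5 and at 9.45, 9.30 and 9.35 at E17.5. The ages did not overlap, and the difference was -0.51 (SE 0.13, adjusted p = 0.0443). It was not called in the averaged fit (adjusted p = 0.133) or without E12.5 B (adjusted p = 0.103), E12.5 C (adjusted p = 0.102), E17.5 A (adjusted p = 0.111), E17.5 B (adjusted p = 0.168) or E17.5 C (adjusted p = 0.0806). Plin3, another droplet coat protein, differed by 0.41 (adjusted p = 0.109).

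Pnpla2, the adipose triglyceride lipase that starts droplet breakdown, was at 5.68, 4.65 and 5.36 at E12.5 and at 5.84, 6.00 and 6.59 at E17.5 (0.91, SE 0.36, adjusted p = 0.149). Lipe, hormone-sensitive lipase, was between 2.50 and 2.83 on all 6 arrays, in the background range. Dgat1 and Dgat2, which make triglyceride from diacylglycerol, differed by 0.16 (adjusted p = 0.685) and -0.61 (adjusted p = 0.225). The interval of Dgat2 ran from -1.28 to 0.068, so a 2-fold fall was within it.

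Of 16 beta-oxidation genes 4 rose, 2 fell and 10 were not called (37.5% called), with a median difference of 0.16. All 16 had a mean of at least 6, where 26.4% of all genes were called, 13.2% higher and 13.2% lower, so the 2 falls are near the background share. The averaged fit gave 4 rises and 1 fall, against 10.2% of all genes called, 5.62% higher and 4.54% lower, shares not limited to bright genes. Without E12.5 C, E17.5 A or E17.5 B 1 gene fell. The 4 rises were the dehydrogenase genes Acadvl, Acadl and Acadm and the electron transfer gene Etfdh. The falls were Cpt1a and Slc25a20, both of the carnitine shuttle. Of its other listed genes, Cpt2 was not called and Cpt1b, a second CPT1 gene, was not analysed here.

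The promoters of these 6 genes and of Pdk4 are shown because both directions occur within 1 pathway. They are the 250 bases before each gene's start in RefSeq (GRCm38.p6), 5′ to 3′ on the gene's strand. Capitals mark AGGTCA or its reverse complement TGACCT, the half-site that PPAR and related nuclear receptors bind in pairs.
Acadvl, chr11:70015429-70015678, minus strand: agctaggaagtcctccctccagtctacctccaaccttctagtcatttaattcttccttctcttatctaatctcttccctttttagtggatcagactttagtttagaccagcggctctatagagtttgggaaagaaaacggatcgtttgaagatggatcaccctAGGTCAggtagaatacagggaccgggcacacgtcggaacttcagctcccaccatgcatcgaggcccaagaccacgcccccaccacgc
Acadl, chr1:66863310-66863559, minus strand: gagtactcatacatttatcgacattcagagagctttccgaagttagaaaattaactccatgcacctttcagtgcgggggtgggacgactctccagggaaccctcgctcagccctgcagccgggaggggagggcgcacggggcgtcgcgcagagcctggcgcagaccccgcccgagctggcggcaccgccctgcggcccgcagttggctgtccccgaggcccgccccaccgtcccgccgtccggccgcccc
Acadm, chr3:153944644-153944893, minus strand: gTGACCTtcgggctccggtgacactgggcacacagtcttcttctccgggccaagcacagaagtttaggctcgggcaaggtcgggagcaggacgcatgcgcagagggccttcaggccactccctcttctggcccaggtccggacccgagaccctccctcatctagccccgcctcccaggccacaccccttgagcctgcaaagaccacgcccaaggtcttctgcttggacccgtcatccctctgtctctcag
Etfdh, chr3:79628768-79629017, minus strand: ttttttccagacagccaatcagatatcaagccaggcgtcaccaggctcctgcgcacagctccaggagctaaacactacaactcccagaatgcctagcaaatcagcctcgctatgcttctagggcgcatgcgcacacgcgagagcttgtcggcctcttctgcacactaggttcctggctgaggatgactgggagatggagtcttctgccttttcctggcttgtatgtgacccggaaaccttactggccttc
Cpt1a, chr19:3323051-3323300, plus strand: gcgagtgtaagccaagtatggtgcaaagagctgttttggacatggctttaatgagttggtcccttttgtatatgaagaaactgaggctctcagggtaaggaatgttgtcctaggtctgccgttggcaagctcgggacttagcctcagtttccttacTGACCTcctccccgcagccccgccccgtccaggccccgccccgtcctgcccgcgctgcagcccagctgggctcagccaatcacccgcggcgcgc
Slc25a20, chr9:108661886-108662135, plus strand: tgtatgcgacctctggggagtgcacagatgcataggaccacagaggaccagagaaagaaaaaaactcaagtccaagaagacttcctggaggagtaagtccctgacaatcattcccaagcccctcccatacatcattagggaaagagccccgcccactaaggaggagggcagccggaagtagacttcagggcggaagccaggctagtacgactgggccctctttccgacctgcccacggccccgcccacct
Pdk4, chr6:5496279-5496528, minus strand: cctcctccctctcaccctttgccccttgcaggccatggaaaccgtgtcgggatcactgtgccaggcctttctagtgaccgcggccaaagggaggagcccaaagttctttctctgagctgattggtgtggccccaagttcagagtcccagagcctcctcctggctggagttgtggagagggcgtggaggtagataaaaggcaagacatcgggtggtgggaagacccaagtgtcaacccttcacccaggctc

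The half-site occurred once in each of Acadvl, Acadm and Cpt1a, its first base at -87, -249 and -94 from the start, and these letters were not in the other 4 stretches. Over 32851 RefSeq promoters of the same length, 14.0% held it on either strand. Of the 36 fatty acid genes with a RefSeq promoter it was found in 8 (Acadm, Acadvl, Cd36, Cpt1a, Echs1, Plin2, Pparg and Ucp3). The paired form AGGTCANAGGTCA, which contains the half-site, was in none of the 36 and in 0.0335% of all promoters. The extended half-site TCAAGGTCA, a form bound by estrogen-related receptors that also contains it, was in none of the 36 and in 0.387% of all. A match describes letters, not binding.

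CPT1 on the outer mitochondrial membrane commits acyl groups to oxidation, and Cpt1a encodes its liver isoform. Cpt1a was at 8.59, 8.30 and 8.61 at E12.5 and at 7.48, 7.24 and 7.81 at E17.5, without overlap. The mean fell from 8.50 ± 0.17 to 7.51 ± 0.29 (difference -0.99, SE 0.20, adjusted p = 0.0165). The call did not hold in the averaged fit (adjusted p = 0.0644) or without E12.5 C (adjusted p = 0.0652), E17.5 A (adjusted p = 0.0667) or E17.5 B (adjusted p = 0.0670). The gene's other 2 probe sets were also lower at E17.5, by -1.39 and -0.66 (adjusted p = 0.0601 and 0.147 in a limma fit over probe sets).

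Slc25a20, the carnitine-acylcarnitine carrier of the inner membrane, was at 10.05, 10.01 and 10.02 at E12.5 and at 8.96, 9.23 and 9.13 at E17.5. The ages were apart by far more than the spread within either. The mean fell from 10.03 ± 0.021 to 9.11 ± 0.14 (difference -0.92, SE 0.11, adjusted p = 0.00236; averaged fit, adjusted p = 0.0108), with the smallest adjusted p of the 46 genes. Its second probe set differed by -0.75 (adjusted p = 0.0301 in the limma fit over probe sets). Cpt2, the inner-membrane enzyme that returns acyl groups to CoA, overlapped between the ages (-0.17, 95% interval -0.51 to 0.17, adjusted p = 0.567).

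The acyl-CoA dehydrogenases carry out the first step of each oxidation cycle, each on its own range of chain lengths. Acadvl, the very long chain enzyme, was at 9.10, 9.41 and 9.34 at E12.5 and at 10.35, 10.38 and 10.13 at E17.5. The mean rose from 9.28 ± 0.16 to 10.29 ± 0.14 (SE of the difference 0.13, adjusted p = 0.00315). Acadl, the long chain enzyme, was at 11.44, 11.36 and 11.66 at E12.5 and at 12.16, 12.22 and 12.21 at E17.5 (0.71, SE 0.10, adjusted p = 0.00492). Neither gene overlapped between the ages. The second probe set of Acadl lay between 2.34 and 2.42 on all 6 arrays, in the background range, and the mean of both probe sets differed by 0.36 (adjusted p = 0.0735).

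Acadm, the medium chain enzyme, was at 9.62, 9.68 and 9.57 at E12.5 and at 10.27, 10.39 and 10.17 at E17.5 (0.65, SE 0.10, adjusted p = 0.00692), again without overlap. Acads, the short chain enzyme, overlapped, at 7.01, 6.82 and 7.56 against 7.22, 7.53 and 7.21 (0.19, SE 0.25, adjusted p = 0.771). From very long to short chain the 4 differences were in descending order. Their 95% intervals overlapped, with 0.69 to 1.32 for Acadvl, 0.46 to 0.96 for Acadl, 0.40 to 0.90 for Acadm and -0.40 to 0.78 for Acads, and differences between these genes were not tested. In the averaged fit the adjusted p of Acadvl, Acadl and Acadm was 0.0200, 0.0259 and 0.0425.

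Electrons of these dehydrogenases pass to the electron transfer flavoprotein, made of the products of Etfa and Etfb, and then to its ubiquinone oxidoreductase, encoded by Etfdh. Etfdh was at 8.89, 9.30 and 9.40 at E12.5 and at 10.36, 10.25 and 10.03 at E17.5. The ages did not overlap, and the difference was 1.02 (SE 0.17, adjusted p = 0.00818; averaged fit, adjusted p = 0.0380). Etfa was at 12.22, 12.02 and 11.99 against 12.42, 12.41 and 12.33, without overlap and without a call (0.31, SE 0.096, adjusted p = 0.0757), and leaving out E12.5 A gave one (adjusted p = 0.0276). Etfb was at 10.19, 10.28 and 10.32 against 10.16, 10.38 and 10.30, with an interval of -0.23 to 0.26.

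**Figure D3:**
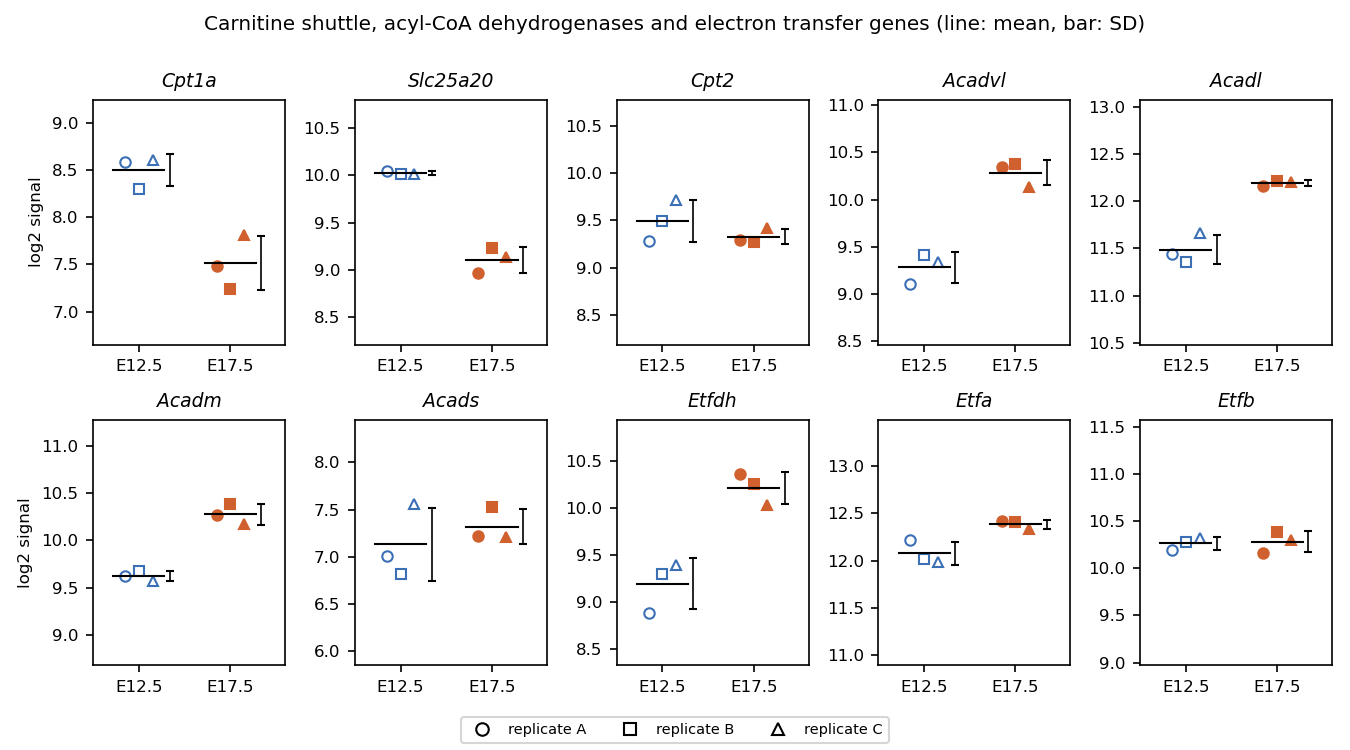
Log2 signal by age of the measured carnitine shuttle genes, the acyl-CoA dehydrogenase genes and the electron transfer genes. A line marks the mean and a bar the SD (n = 3 per age). Cpt1a and Slc25a20 are lower at E17.5, Acadvl, Acadl, Acadm and Etfdh are higher, and Cpt2, Acads and Etfb overlap.

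The later steps of the cycle were not called. Hadha and Hadhb encode the alpha and beta subunits of the mitochondrial trifunctional protein. In RefSeq the starts of the pair lie 273 bases apart on opposite strands, head to head. Hadhb was at 13.01, 12.65 and 13.04 at E12.5 and at 12.85, 12.83 and 13.12 at E17.5 (0.033, 95% interval -0.30 to 0.37, adjusted p = 0.942). Hadha varied within both ages, at 6.70, 8.18 and 8.05 and at 7.78, 7.58 and 6.37 (-0.40, SE 0.52, adjusted p = 0.772), and its interval of -1.65 to 0.85 was the widest of the 16 beta-oxidation genes. The arrays low for Hadha, E12.5 A and E17.5 C, were not low for Hadhb.

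Hadh, the hydroxyacyl-CoA dehydrogenase of shorter chains, differed by 0.13 (adjusted p = 0.658). Echs1, the short chain enoyl-CoA hydratase, was at 10.52, 10.02 and 9.94 at E12.5 and at 9.20, 9.26 and 10.54 at E17.5 (-0.49, adjusted p = 0.516), so that E17.5 C was the highest of all 6 arrays. Without E17.5 replicate C, which leaves the close pair A and B, the difference was -0.93 (adjusted p = 0.0304). In the averaged fit the adjusted p of Echs1 was 0.789. Eci1 and Decr1, which prepare unsaturated fatty acids for the cycle, differed by 0.25 (adjusted p = 0.213) and 0.23 (adjusted p = 0.537).

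Among the 7 regulators 2 rose and 5 were not called (28.6% called, against 16.9% of all genes). The averaged fit gave the same counts, against 10.2% of all genes called. Pdk4, the pyruvate dehydrogenase kinase induced in fasting muscle, was at 4.66, 3.95 and 5.60 at E12.5 and at 9.28, 9.46 and 7.85 at E17.5. The lowest E17.5 array stood well above the highest E12.5 array, although both ages varied. The mean rose from 4.74 ± 0.83 to 8.86 ± 0.88 (difference 4.13, SE 0.57, adjusted p = 0.00391; averaged fit, adjusted p = 0.0169). Its adjusted p lay between 0.00389 and 0.0183 when single arrays were left out.

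Ppara, the PPAR receptor of oxidative tissues, was at 3.87, 3.87 and 4.57 at E12.5 and at 5.41, 5.46 and 5.76 at E17.5. The E12.5 arrays lay in or near the background range and every E17.5 array was above them. The mean rose from 4.10 ± 0.40 to 5.54 ± 0.19 (difference 1.44, SE 0.27, adjusted p = 0.0130; averaged fit, adjusted p = 0.0430). Another Ppara probe set went from a mean of 3.35 to 4.88 (adjusted p = 0.0488 in the limma fit over probe sets), and the remaining one from 2.88 to 3.36 (adjusted p = 0.201). Ppard, the broadly expressed PPAR, was at 4.65, 4.36 and 4.28 against 4.75, 4.44 and 5.70 (0.53, adjusted p = 0.429). Pparg, the PPAR of adipocytes, was between 2.61 and 2.69 on all 6 arrays, in the background range.

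Ppargc1a, which encodes the coactivator PGC-1alpha, was at 8.13, 6.98 and 7.22 at E12.5 and at 6.82, 6.79 and 7.50 at E17.5 (-0.41, adjusted p = 0.600). Its other 4 probe sets differed by -0.62, -0.82, -0.71 and 0.023 and were not called in the limma fit over probe sets, with a smallest adjusted p of 0.175. Ppargc1b, a related coactivator gene, was at 7.33, 7.33 and 7.45 against 7.78, 7.86 and 7.71, without overlap (0.41, SE 0.15, adjusted p = 0.125). It was called in the fit without an intensity trend (adjusted p = 0.0117). Ucp3, a muscle uncoupling protein gene, was between 2.23 and 2.26 on all 6 arrays, in the background range.

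**Figure D4:**
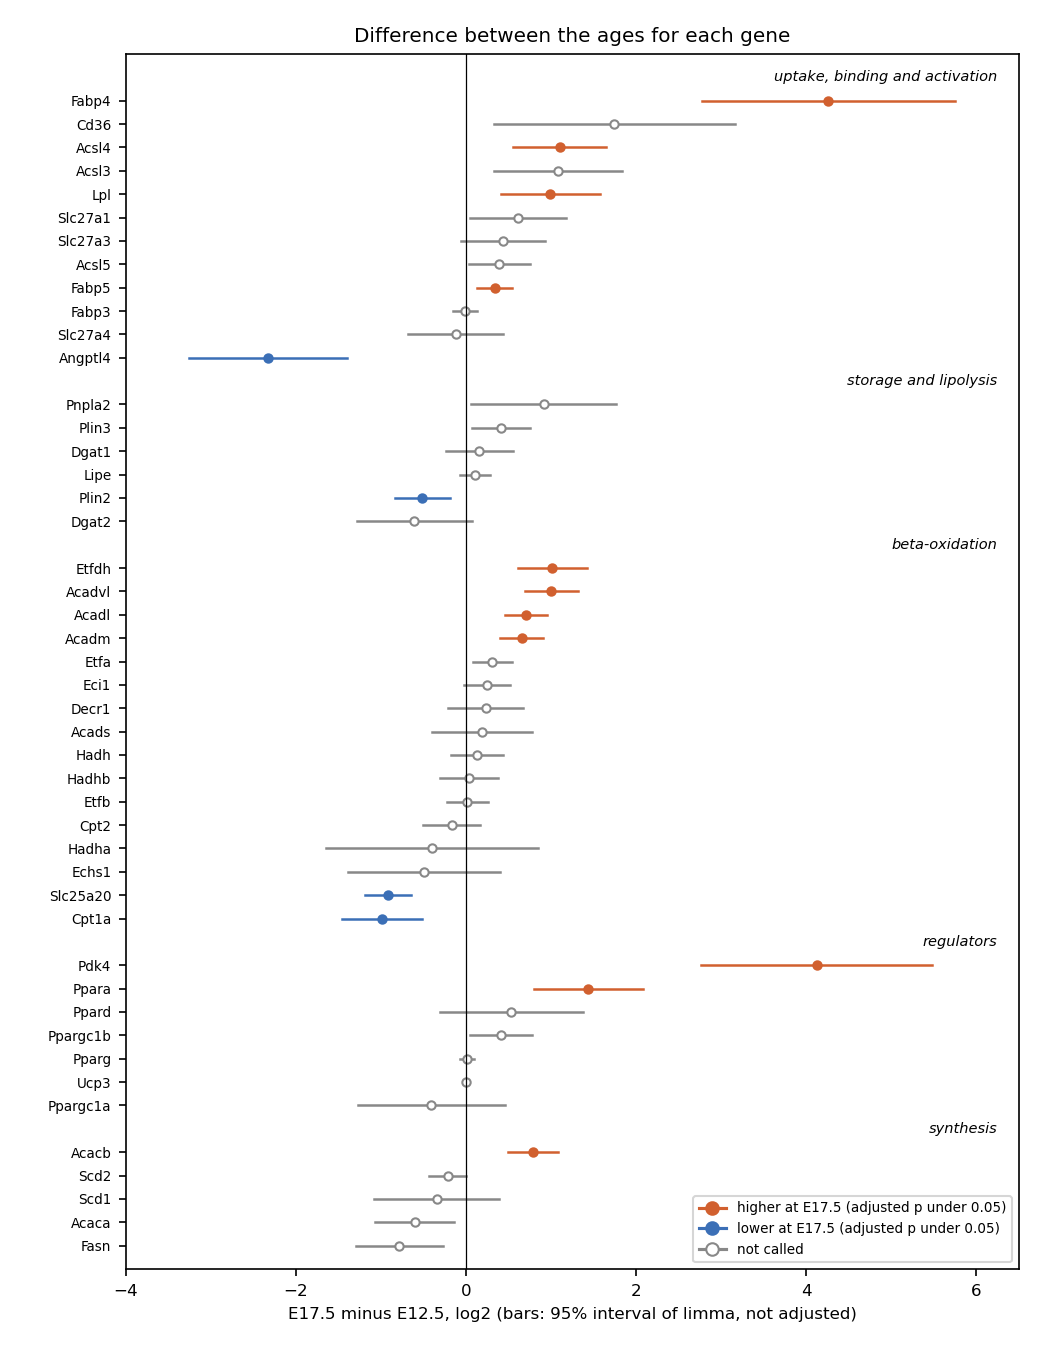
Difference between the ages in log2 units (horizontal, positive where E17.5 is higher) for each of the 46 genes, by group and ordered by size, with the unadjusted 95% interval of limma as a bar. Filled points are the 11 genes called higher and the 4 called lower at E17.5, open grey points the 31 without a call.

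Among the 5 synthesis genes 1 rose and 4 were not called (20% called, near the 16.9% of all genes). Of the 5 differences 4 were negative. The rise was that of Acacb, the acetyl-CoA carboxylase whose product restrains CPT1, from 2.39, 2.38 and 2.43 to 2.98, 3.10 and 3.48 (0.79, SE 0.12, adjusted p = 0.00626). All 6 values lay in the background range, and raising them to 4 left a difference of 0. Fasn, fatty acid synthase, was at 9.45, 9.72 and 10.27 at E12.5 and at 9.09, 9.09 and 8.91 at E17.5. The ages did not overlap, and the difference missed a call (-0.78, SE 0.21, adjusted p = 0.0516). It was called when E12.5 A was left out (adjusted p = 0.0209) or when genes with a mean under 4 were dropped (adjusted p = 0.0289). In the averaged fit its adjusted p was 0.125.

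Acaca, the carboxylase that supplies malonyl-CoA for synthesis, was at 8.58, 8.99 and 9.03 against 8.06, 8.18 and 8.55 (-0.60, SE 0.20, adjusted p = 0.0872). Leaving out E12.5 A (adjusted p = 0.0415) or E17.5 C (adjusted p = 0.0447) gave a call. The fit without E17.5 C has only the close pair A and B at E17.5, and in the averaged fit the adjusted p was 0.258. Scd1 and Scd2 encode stearoyl-CoA desaturases, which make monounsaturated fatty acids. Scd2 was at 13.61, 13.83 and 13.69 at E12.5 and at 13.46, 13.49 and 13.53 at E17.5, without overlap (-0.22, adjusted p = 0.173). Scd1 was at 8.04, 8.14 and 7.82 against 7.32, 7.30 and 8.34 (-0.35, adjusted p = 0.598). Without E17.5 C, again leaving the close pair, its difference was -0.69 (adjusted p = 0.0435). In the averaged fit the adjusted p of Scd1 was 0.838.

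Genes of the same pathways outside the 49 were read from 6 further lists. Of 20 other uptake and carrier genes 2 rose and none fell in limma (10% called, against 16.9% of all genes). They were Vldlr, a lipoprotein receptor (2.70, adjusted p = 0.0131), and Lmf2 (0.91, adjusted p = 0.0499; averaged fit, adjusted p = 0.115). Of 19 other storage and lipolysis genes 3 rose and none fell in limma (15.8%). G0s2, an inhibitor of the lipase encoded by Pnpla2, rose from 6.67 ± 0.24 to 9.22 ± 0.22 (SE of the difference 0.19, adjusted p = 0.000368). Agpat2, an enzyme of triglyceride synthesis, rose by 1.46 (adjusted p = 0.00959), and the monoglyceride lipase gene Mgll by 0.87 (adjusted p = 0.0125). The E12.5 values of Mgll lay in the background range, and raising them to 4 gave 0.54.

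Of 25 other mitochondrial oxidation genes 3 rose and 1 fell (16%, near the 16.9% of all genes). Of the 22 with a mean of at least 6, 18.2% were called, against 26.4% of all genes that bright. The averaged fit gave 1 and 1, against 10.2% of all genes called. The thioesterase gene Acot9 rose by 1.39 (adjusted p = 0.00611) and Acot7 fell by 1.43 (adjusted p = 0.00438). Mlycd, which removes malonyl-CoA, differed by 1.25 (adjusted p = 0.0120; averaged fit, adjusted p = 0.0675), and Acadsb by 0.79 (adjusted p = 0.0262; averaged fit, adjusted p = 0.100).

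Of 19 peroxisomal oxidation genes 1 rose and 3 fell (21.1%, against 16.9% of all genes). Of the 13 with a mean of at least 6, 23.1% were called, against 26.4% of all genes that bright. The averaged fit gave no rise and 2 falls, against 10.2% of all genes called. Pex11a, a factor of peroxisome division, fell by 1.79 (adjusted p = 0.00201), and Hsd17b4, the peroxisomal bifunctional enzyme, fell by 0.84 (adjusted p = 0.00552). Phyh, of phytanic acid breakdown, differed by -0.84 (adjusted p = 0.0368; averaged fit, adjusted p = 0.124) and Scp2 by 0.48 (adjusted p = 0.0311; averaged fit, adjusted p = 0.114).

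Of 25 other synthesis and desaturation genes 6 rose and 4 fell (40%, against 16.9% of all genes). Of the 18 with a mean of at least 6, 38.9% were called, against 26.4% of all genes that bright. The averaged fit gave 5 and 3, against 10.2% of all genes called. Fads3, of the fatty acid desaturase family, rose by 2.81 (adjusted p = 0.00124), Insig1, which holds back SREBP processing, by 2.15 (adjusted p = 0.00456) and the elongase gene Elovl7 by 1.86 (adjusted p = 0.00718). The elongase genes Elovl4 and Elovl2, which act on very long chains, fell by 2.44 (adjusted p = 0.00437) and 2.36 (adjusted p = 0.00217), and Me1, the malic enzyme that supplies NADPH, fell by 1.65 (adjusted p = 0.00273). Elovl7 at E12.5 and Me1 at E17.5 lay in the background range, and raising values under 4 to 4 gave differences of 1.32 and -1.28. Of the 7 elongase genes, 2 rose (Elovl1 and Elovl7), 2 fell and 3 were not called (Elovl3, Elovl5 and Elovl6).

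Of 31 other regulators 6 rose and 2 fell (25.8%, against 16.9% of all genes). Of the 21 with a mean of at least 6, 28.6% were called, near the 26.4% of all genes that bright. The averaged fit gave 4 and 2, against 10.2% of all genes called. The estrogen-related receptor gene Esrrg, a regulator of oxidative metabolism, rose from 3.38 ± 0.091 to 6.04 ± 0.11 (SE of the difference 0.19, adjusted p = 0.000278), and by 2.04 with values under 4 raised to 4. Cebpb and Cebpd, known from early adipogenesis and from stress responses, were higher by 2.66 (adjusted p = 0.0203; averaged fit, adjusted p = 0.0666) and 2.61 (adjusted p = 0.00112). Cebpb was at 4.13, 3.51 and 4.46 at E12.5, in or near the background range, and at 7.31, 7.30 and 5.46 at E17.5. With values under 4 raised to 4 it differed by 2.49. Rxrg, a dimerization partner of PPAR receptors, fell by 2.38 (adjusted p = 0.000861) and the kinase gene Pdk3 fell by 1.49 (adjusted p = 0.00186).

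**Figure D5:**
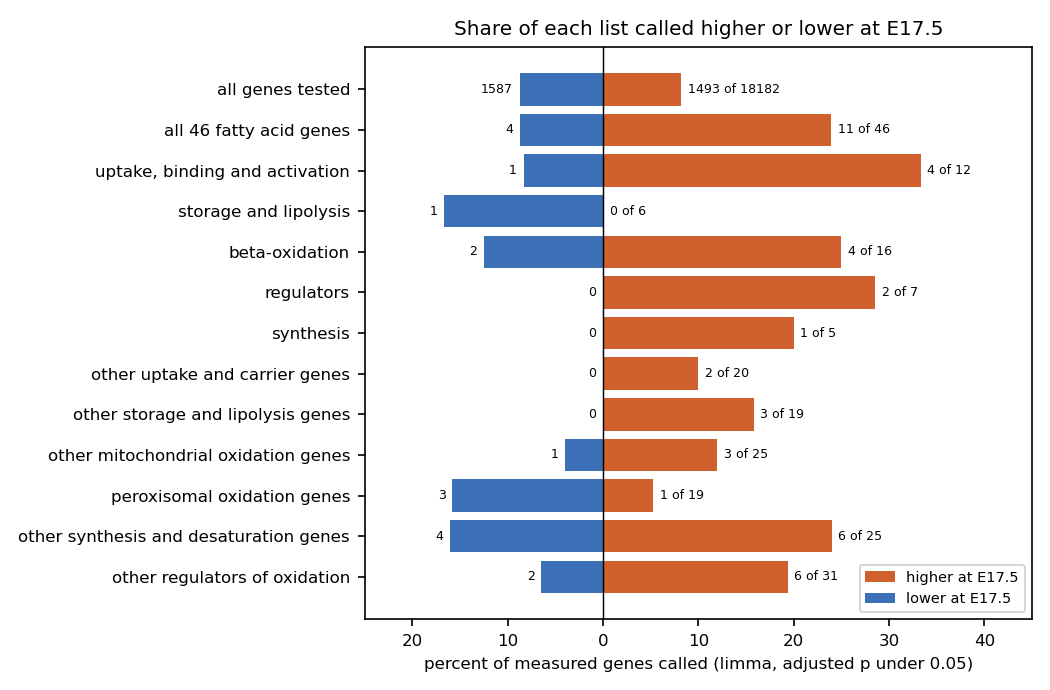
Percent of measured genes called higher (right) or lower (left) at E17.5 by limma for all genes, all 46 fatty acid genes, their 5 groups and 6 further pathway lists, with the numbers of genes beside the bars. Among the 5 groups, uptake, binding and activation has the largest share of rises in this fit, 4 of 12, and 1493 of all 18182 genes rose. In the averaged fit, not drawn, 1 of 12 uptake, 4 of 16 beta-oxidation and 2 of 7 regulator genes rose.

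The other marker lists held calls between the ages as well, against 16.9% of all genes called, and their part in the differences above was not tested. For each, the log2 of the summed signal is given as its range over the E12.5 and then the E17.5 arrays. Of 15 fibroblast and mesenchyme markers, with Col3a1 and Col1a2 the brightest, 3 rose and 3 fell, 2 and 1 in the averaged fit (14.05 to 15.14 and 15.08 to 15.34). Of 10 pericyte and smooth muscle markers, with Acta2 and Notch3 the brightest, 4 rose and 2 fell, 2 and 1 in the averaged fit (13.92 to 14.18 and 13.62 to 13.71). Cartilage markers, with Col9a1 and Sox9 the brightest, had 1 fall among 9, also in the averaged fit (11.87 to 12.74 and 8.58 to 10.43). Schwann cell markers, with Erbb3 and Ngfr the brightest, had 2 falls among 8, also in the averaged fit (12.52 to 13.10 and 9.81 to 10.17), and the defining factor Sox10 was at 2.86 and 2.32. Of 11 erythroid markers, with Hbb-y and Hba-x the brightest, 3 fell and Ermap rose, and in the averaged fit Hbb-y fell and Ermap rose (13.04 to 14.94 and 7.32 to 7.52).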

How the data were processed

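RNA of the sorted cells was hybridised to 6 Affymetrix arrays of 1 colour, 3 per age, after two-cycle 3' amplification of 100 ng, per the labels' protocols. The authors deposited log2 values for each probe set. The submitters' processing notes name GCRMA but not its version. This method draws probe sets without specific hybridisation into a narrow low range. A change from that range therefore depends on how background was modelled. Array medians lay between 3.38 and 3.47, and 33.7% to 34.8% of probe sets on an array reached 6. The number of arrays limits the precision.

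Probe sets were named through the supplied platform annotation, with symbols updated by entrez ID to RefSeq (GRCm38.p6). Of 44994 probe sets 34909 had 1 symbol, 931 had several and 9154 were unnamed here. limma 3.58.1 in R 4.3.3 (lmFit, eBayes with an intensity trend) was fitted to all 18182 genes without a filter, and was tested on simulated data. Values of single probe sets come from a separate fit over the named probe sets. The members, groups and lists were chosen with earlier results of these data known. All members are named. Named outside the 49 genes are up to 3 rises and 3 falls per pathway list and the 2 brightest genes per marker list. Further marker genes were chosen after their values were seen. They define a cell type, were called or had values above 4 on some E17.5 arrays. Nothing says which embryos the replicates came from, so p-values measure the spread between these arrays. Alternatives were other probe set choices, filters and a floor on dim signals, quantile normalization, centring on bright genes, other variance priors, array weights, a block for replicate letters, the averaged fit, a stricter adjusted p of 0.01 and leaving out each array. Leaving out both E17.5 A and B was chosen after seeing the data. Plots were made with matplotlib 3.10.9.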

Additional observations from a re-analysis of the deposited data

How the results depend on the processing

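The low number of arrays, the closeness of A and B at E17.5, and the background range limit these results. Of the 46 genes 5 had means under 4 at both ages, where a difference or its absence says little. Quantile normalization and centring on bright genes left the counts of rises and falls in all groups within 1.5 times, and moved the median difference of all genes from 0.0033 to 0.0011 and -0.01.

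The 11 rises among the fatty acid genes became 7 with values under 4 raised to 4, 7 at an adjusted p under 0.01, 22 with array weights and 2 with both E17.5 A and B left out, where the lone array C is assumed to vary like the E12.5 arrays. The 4 falls became 2 in the averaged fit, 2 at an adjusted p under 0.01, 13 with array weights and 0 without E17.5 A and B. Leaving out 1 array gave 8 to 12 rises and 2 to 6 falls. Over all genes the 1493 rises and 1587 falls became 1021 and 825 in the averaged fit, 841 and 701 at 0.01, 3204 and 5220 with array weights, and 778 and 357 without E17.5 A and B. The array weights were highest for E17.5 A (4.98), E12.5 C (4.80) and E17.5 B (3.24).

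Of the uptake genes 4 rose; 1 rose with the floor, with the replicate block, in the averaged fit, at 0.01 and without E17.5 A and B, 9 rose with array weights, and 1 to 4 rose without 1 array. Their 1 fall became 0 with the mean of probe sets, without probe sets ending in _s_at or _x_at, and without E17.5 A and B, and 2 with array weights. The 1 fall in storage became 0 with the floor, the robust prior, the replicate block, the averaged fit, at 0.01 and without E17.5 A and B, 2 with array weights and 0 to 1 without 1 array, and array weights gave 3 storage rises. In beta-oxidation the 4 rises became 0 without E17.5 A and B. The 2 falls became 5 with array weights, 1 in the averaged fit, 1 at 0.01, 0 without E17.5 A and B and 1 to 3 without 1 array. The 2 regulator rises became 1 with only genes of a mean of 6 or more, where 3 regulators were tested, 1 at 0.01 and 0 without E17.5 A and B. The synthesis rise (Acacb) became 0 with only genes of a mean of 4 or 6 or more and with the floor. Synthesis falls numbered 1 with only genes of a mean of 4 or more, 1 with only those of 6 or more, 4 with array weights and 0 to 2 without 1 array. Beyond what each setting does by construction, the cause was not tested.

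Whether the replicate letters pair the arrays could not be told. Same-letter deviations correlated at -0.38, 0.25 and -0.070 over 8758 genes, and not every array correlated best with its own letter. E17.5 A and B correlated alike with E12.5 A (-0.38 and -0.28) and with E12.5 B (0.36 and 0.25). Being so close, they cannot be told apart by this measure. With the replicate block 1091 genes rose and 1014 fell over all genes, and 8 fatty acid genes rose and 3 fell. Fabp5 (adjusted p = 0.117), Lpl (adjusted p = 0.0768), Acsl4 (adjusted p = 0.0531) and Plin2 (adjusted p = 0.122) were not called, and no other call among the 46 changed.

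Signs turned in some alternatives. Angptl4 was at 0.40 (adjusted p = 0.547) on its dim probe set, without probe sets ending in _s_at or _x_at. Among genes without a call, Dgat1 was at -0.043 there. With array weights Acads was at -0.15, Hadhb at -0.17 (adjusted p = 0.0476), Etfb at -0.061 and Pparg at -0.018. Without E17.5 A and B Dgat1 was at -0.027, Echs1 at 0.38, Ucp3 at 0.017, Ppargc1a at 0.057 and Scd1 at 0.34. Without 1 array the values were -0.065 to 0.03 for Fabp3, -0.25 to 0.077 for Slc27a4, -0.87 to 0.037 for Hadha, -0.092 to 0.10 for Hadhb, -0.033 to 0.077 for Etfb, -0.0083 to 0.0067 for Ucp3 and -0.01 to 0.02 for Pparg.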
